A study of Mus musculus with 8 samples.

Results

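Transcript levels of 10 genes of osteoblast commitment and function were described in mouse cardiac fibroblasts, the cells that lay down the collagen matrix of the heart. The genes were Runx2, Sp7, Dlx5, Msx1, Msx2, Alpl, Ifitm5, Smpd3, Pth1r and Cdh11, taken by symbol from the 54532 genes of the deposited table. The study kept fibroblasts that overexpress EphrinB2, the Eph receptor ligand encoded by Efnb2, in osteogenic differentiation medium and in complete medium, and did the same with fibroblasts carrying vector. All were collected on day 7, and each of the 4 groups (EphrinB2 osteogenic, EphrinB2 complete, vector osteogenic and vector complete) has 2 libraries. Every library therefore comes from cells that carry a construct, and cells without any are not analysed here. The labels do not say which construct drove EphrinB2, what the 2 media contained, what strain, age or passage the fibroblasts had, or whether the 2 libraries of a group were separate cultures. If they were not, the p-values below reflect technical spread alone.

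Osteoblasts arise from mesenchymal precursors in an order set by transcription factors. In the mouse, Runx2 commits precursors to the lineage, Sp7 (osterix) acts after it, and mice without either form no bone. The homeodomain factors Dlx5, Msx1 and Msx2 respond to bone morphogenetic proteins (BMPs) and act around Runx2. Mineral then depends on enzymes and membrane proteins of the cell: Alpl, the tissue-nonspecific alkaline phosphatase, removes the mineralisation inhibitor pyrophosphate, and Smpd3, a neutral sphingomyelinase, is needed for mineralisation in mouse bone. Ifitm5 (BRIL) is a membrane protein of mineralising osteoblasts, Pth1r is the receptor of parathyroid hormone and its related peptide, and Cdh11 is the cadherin first described in osteoblasts and also made by fibroblasts.

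The 8 libraries held 16493963 to 20550687 counted reads, as estimated from the steps between low values of the table. Levels are in FPKM, fragments per kilobase of exon scaled to the depth of the library, so that levels of genes of different length may be compared. All 10 fibroblast markers listed were at or above 1 FPKM in all 8 libraries. Efnb2, the gene overexpressed, stood at 5.02 and 18.3 FPKM in EphrinB2 osteogenic libraries, against 1.39 and 1.27 FPKM in vector osteogenic libraries, and at 31.3 and 32.8 FPKM in EphrinB2 complete libraries, against 6.30 and 5.56 FPKM in vector complete libraries. Its groups did not overlap in either medium, although EphrinB2 against vector did not pass for it when adjusted over all genes (adjusted p = 0.567 in osteogenic and 1 in complete medium). Both EphrinB2 groups held partners that lay far apart: the SD over genes of the log2 difference between partners was 0.657 in EphrinB2 osteogenic and 0.517 in EphrinB2 complete libraries, against 0.234 in vector osteogenic and 0.261 in vector complete libraries. EphrinB2 osteogenic replicate 1 and EphrinB2 complete replicate 2 were the ones farthest from the rest on the first principal component. In replicate 1 of EphrinB2 osteogenic, genes of 5000 exonic bases stood 0.674 lower on the log2 scale, relative to genes of 1000 bases, than on average over the libraries, and in replicate 2 of EphrinB2 complete they stood 0.325 higher. The members' results, and the differences of the called genes named from the other lists in EphrinB2 cells, are also given without both libraries. That fit keeps 1 library in each EphrinB2 group, so its spread comes from the vector libraries alone. Its p-values and calls hold no spread between EphrinB2 libraries. For the lists this fit was chosen after the data were seen.

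In osteogenic against complete medium, Cdh11 fell in both kinds of cell, 9.61-fold in EphrinB2 and 6.89-fold in vector cells by the means. In EphrinB2 cells Smpd3 also fell and Ifitm5 rose, but both calls were lost when any 1 of the 4 vector libraries was left out, and Ifitm5 entered the test only through the libraries where it is high. Runx2, Alpl, Pth1r and Msx1 did not pass the test in either kind of cell, and Sp7, Dlx5 and Msx2 stayed under 1 FPKM in all 8 libraries. No member passed the test for EphrinB2 against vector in either medium. The figure of levels by library shows all 10 genes.

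**Figure D1:**
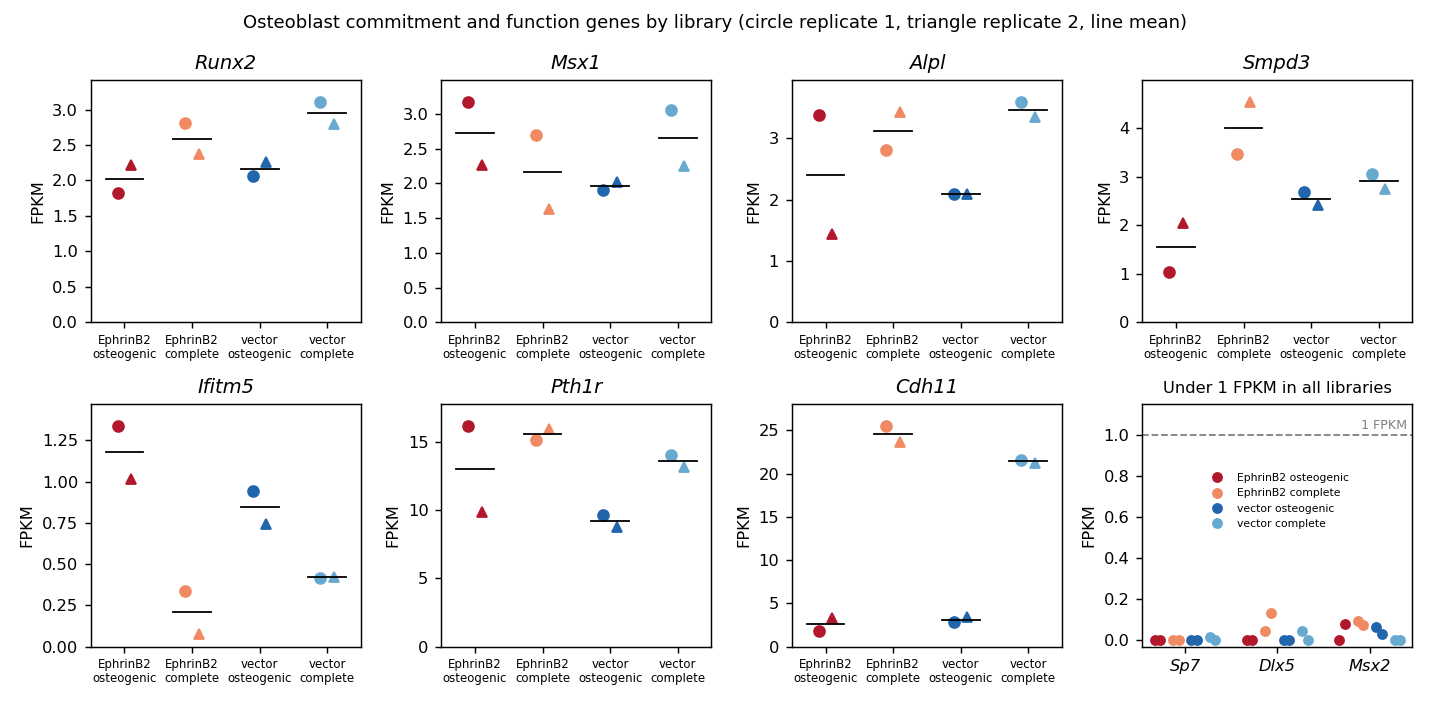
Level in FPKM (vertical axis, linear, starting at 0) of 7 members in each library of the 4 groups, with circles for replicate 1, triangles for replicate 2 and a line at the mean, and in the last panel the 3 members under 1 FPKM in all libraries. Cdh11 sits between 1.84 and 3.37 FPKM in the 4 osteogenic libraries and between 21.3 and 25.5 FPKM in the 4 complete libraries, while the other panels show smaller gaps and wider partners in EphrinB2 cells.

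Sp7, Dlx5 and Msx2 were undetected, that is, under 1 FPKM in all libraries. Sp7 (chromosome 15, 102356606 to 102367182) had 1 estimated read in vector complete replicate 1, at 0.0157 FPKM, and 0 reads in the other 7 libraries. A count of 0 allows, at 3 reads, a level of up to 0.0430 to 0.0535 FPKM in those libraries, counting error only. Dlx5 (chromosome 6, 6877805 to 6882085) had 0 reads in both EphrinB2 osteogenic libraries, against 2 and 5 reads in EphrinB2 complete libraries, the higher at 0.134 FPKM. In vector cells Dlx5 had 0 reads in both osteogenic libraries, against 2 and 0 in complete medium. A difference between media was not detectable at this depth. Msx2 (chromosome 13, 53466884 to 53473074) had 0 and 5 reads in EphrinB2 osteogenic libraries, against 6 and 4 in EphrinB2 complete libraries, and 4 and 2 reads in vector osteogenic libraries, against 0 and 0 in vector complete libraries. The highest Msx2 level was 0.0948 FPKM. With a limit of 0.5 FPKM the same 3 genes were undetected, and with 0.1 FPKM Dlx5 no longer was. The member just above the rule was Ifitm5, with a highest level of 1.34 FPKM, and Dlx5 was the highest below it.

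Runx2 was present at a low level in every library. The gene (ENSMUSG00000039153) lies on the minus strand of chromosome 17 from 44495987 to 44814797. It measured 1.82 and 2.22 FPKM in EphrinB2 osteogenic libraries, against 2.81 and 2.37 FPKM in EphrinB2 complete libraries. Vector cells gave 2.06 and 2.26 FPKM in osteogenic medium, against 3.11 and 2.80 FPKM in complete medium. In each kind of cell both osteogenic libraries lay below both complete libraries, by a small margin. The log2(FPKM + 1) difference, osteogenic minus complete, was -0.25 in EphrinB2 cells (95% interval -0.60 to 0.099, adjusted p = 0.276) and -0.32 in vector cells (95% interval -0.67 to 0.025, adjusted p = 0.296), from a limma model across all genes with Benjamini-Hochberg adjustment. Neither passed the threshold of 0.05. Averaged over both kinds of cell it was -0.29 (adjusted p = 0.104), and without EphrinB2 osteogenic replicate 2 that average was -0.33 and passed (adjusted p = 0.039). Without both libraries that stood apart the average was -0.28. With the length trend of the libraries removed the EphrinB2 value was 0.030 (adjusted p = 0.914) and the average -0.13 (adjusted p = 0.464), so the direction in EphrinB2 cells turned. With the 2 vector groups fitted alone the vector difference passed (adjusted p = 0.0364), as did 40.6% of all genes there. An antisense transcript, Runx2os1, shares exons with Runx2 and stood at 0.0652 to 0.553 FPKM, and no source used here gives the strand setting of the counting, so its reads cannot be told apart from those of Runx2.

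The promoter window of Runx2 in RefSeq (GRCm38.p6, chr17:44814578-44814877, minus strand, from 250 bases before the transcript start to 50 after it) is shown because it held 3 matches to the core that RUNX proteins bind. Capitals mark TGTGGT on either strand, and here all 3 read ACCACA in the printed strand, 80 bases before and 24 and 32 bases after the start. The core occurred in 16.8% of the 32851 mouse windows of that length, counted by any match, which is no background for 3 matches. None of the other member windows held the core.
Runx2: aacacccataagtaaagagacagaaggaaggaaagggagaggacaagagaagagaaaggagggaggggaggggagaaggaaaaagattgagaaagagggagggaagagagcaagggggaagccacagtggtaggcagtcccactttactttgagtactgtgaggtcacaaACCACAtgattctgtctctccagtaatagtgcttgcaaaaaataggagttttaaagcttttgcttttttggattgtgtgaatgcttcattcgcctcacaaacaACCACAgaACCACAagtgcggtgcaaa

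Msx1, a homeodomain factor of skull and tooth development in the mouse, differed in direction between both kinds of cell and passed no test. Its gene (chromosome 5, 37820485 to 37824583) measured 3.17 and 2.26 FPKM in EphrinB2 osteogenic libraries, against 2.69 and 1.62 FPKM in EphrinB2 complete libraries. Values in vector cells were 1.90 and 2.02 FPKM in osteogenic medium, against 3.05 and 2.26 FPKM in complete medium. The groups overlapped in EphrinB2 cells and did not in vector cells, with the vector osteogenic libraries lower. The difference was 0.24 in EphrinB2 cells (95% interval -0.29 to 0.78, adjusted p = 0.461) and -0.30 in vector cells (95% interval -0.83 to 0.24, adjusted p = 0.598). Without both libraries that stood apart the EphrinB2 value was -0.18 (adjusted p = 0.494), so its direction rests on those libraries.

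Of the 19 partners and regulators of these factors that were listed, 18 were expressed highly enough to test (at least 1 FPKM in at least 2 libraries). In EphrinB2 cells 2 rose and 1 fell in osteogenic medium, and in vector cells 2 rose and 1 fell, that is, 3 of 18 in each, beside 11.8% and 7.52% of all genes tested. The risers in both kinds of cell were Zbtb16 and Maf. Zbtb16, a zinc finger factor known in human cells to be induced in osteogenic cultures, stood at 5.31 and 28.2 FPKM in EphrinB2 osteogenic libraries, against 0.0098 and 0.023 FPKM in EphrinB2 complete libraries, and at 29.4 and 31.1 FPKM in vector osteogenic libraries, against 0 and 0.0102 FPKM in vector complete libraries. It passed the filter only through the osteogenic libraries. Maf, a factor that in mice promotes osteoblast over fat cell fate and is also made by macrophages, rose by 1.28 in EphrinB2 cells (adjusted p = 0.00897) and by 1.56 in vector cells (adjusted p = 0.00506). The faller was Hey1, a Notch target that represses Runx2 activity, with -0.94 (adjusted p = 0.0104) and -1.17 (adjusted p = 0.00563), and it passed the filter through the complete libraries, where it is higher. The EphrinB2 values without both libraries that stood apart were 4.85 for Zbtb16, 1.63 for Maf and -0.94 for Hey1. Cbfb, the DNA-binding partner of RUNX proteins, was not among the genes that passed. The median difference of the list was 0.093 in EphrinB2 cells and -0.11 in vector cells, beside 0.027 and -0.019 over all genes tested.

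Alpl (chromosome 4, 137741733 to 137796384) showed tight vector libraries and scattered EphrinB2 libraries. It measured 3.38 and 1.44 FPKM in EphrinB2 osteogenic libraries, against 2.81 and 3.43 FPKM in EphrinB2 complete libraries. In vector cells it measured 2.10 and 2.09 FPKM in osteogenic medium, against 3.60 and 3.34 FPKM in complete medium. The vector groups were clear of each other, with Alpl lower in osteogenic medium, while EphrinB2 osteogenic replicate 1 lay among the complete libraries and replicate 2 below them. The difference was -0.33 in EphrinB2 cells (95% interval -0.97 to 0.31, adjusted p = 0.41) and -0.53 in vector cells (95% interval -1.17 to 0.11, adjusted p = 0.36). Neither passed, and the spread that the model shares among groups comes mostly from EphrinB2 libraries. With the vector groups fitted alone the same -0.53 passed (adjusted p = 0.00603, 40.6% of all genes called), and without both libraries that stood apart the EphrinB2 value was -0.64 and passed (adjusted p = 0.0144, 29.7% of all genes called). Leaving out EphrinB2 osteogenic replicate 1 alone gave -0.75 in EphrinB2 cells (adjusted p = 0.0362), and leaving out replicate 2 gave 0.092 (adjusted p = 0.616), so a single library decided direction and call. The vector value also passed when either of these was left out (adjusted p = 0.0433 without replicate 1 and 0.0414 without replicate 2), since the shared spread was then smaller.

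Pth1r (chromosome 9, 110722085 to 110747145) was the member with the highest level in osteogenic medium. It measured 16.1 and 9.88 FPKM in EphrinB2 osteogenic libraries, against 15.1 and 15.9 FPKM in EphrinB2 complete libraries. Vector cells had 9.64 and 8.76 FPKM in osteogenic medium, against 14.0 and 13.1 FPKM in complete medium. The pattern over libraries resembled that of Alpl, lower in osteogenic medium in all but EphrinB2 osteogenic replicate 1. The difference was -0.28 in EphrinB2 cells (95% interval -0.81 to 0.26, adjusted p = 0.413) and -0.52 in vector cells (95% interval -1.05 to 0.019, adjusted p = 0.276). Neither passed. The vector value passed with those groups fitted alone (adjusted p = 0.00602). The EphrinB2 value became -0.57 without both libraries that stood apart, from 1 library in each EphrinB2 group. It was -0.60 without EphrinB2 osteogenic replicate 1 (adjusted p = 0.0461) and 0.052 without replicate 2 (adjusted p = 0.753), and the vector value passed without either (adjusted p = 0.0325 without replicate 1 and 0.0326 without replicate 2).

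The promoter windows of Alpl and Pth1r are shown because these genes sat lower together in vector cells in osteogenic medium. Osteogenic media often hold a glucocorticoid, but the labels do not give the composition used, so the windows were searched for AGAACA on either strand, a hexamer of glucocorticoid response elements. Capitals mark its matches. The second of the RefSeq windows of Alpl (GRCm38.p6, chr4:137766426-137766725, minus strand) held 1 match, printed as TGTTCT, 170 bases before the start, and the first held none. The first of 3 windows of Pth1r (chr9:110747096-110747395, minus strand) held 1 match 65 bases before the start. The hexamer occurred in 19.0% of all mouse windows of that length, so a match is common.
Alpl: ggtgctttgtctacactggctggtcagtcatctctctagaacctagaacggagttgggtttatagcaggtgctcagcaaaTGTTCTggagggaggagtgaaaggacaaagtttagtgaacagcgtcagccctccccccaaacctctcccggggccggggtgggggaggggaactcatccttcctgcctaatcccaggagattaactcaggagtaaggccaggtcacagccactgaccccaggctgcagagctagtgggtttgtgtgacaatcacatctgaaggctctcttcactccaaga
Pth1r: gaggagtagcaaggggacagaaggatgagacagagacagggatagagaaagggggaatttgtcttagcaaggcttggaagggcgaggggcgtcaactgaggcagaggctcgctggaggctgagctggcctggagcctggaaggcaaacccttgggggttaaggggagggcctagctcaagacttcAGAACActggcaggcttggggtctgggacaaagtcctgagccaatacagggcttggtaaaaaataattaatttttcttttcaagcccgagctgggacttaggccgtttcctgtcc
RefSeq windows were matched for 6 of the 10 members, 9 windows in all, and not for Sp7, Dlx5, Smpd3 and Cdh11. A homeodomain site, TAATTG, was also searched on either strand and occurred in no member window, against 8.0% of all windows.

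Around the receptor, 10 genes of parathyroid hormone signalling and of the catenins that bind cadherins were listed, and 8 were tested. In EphrinB2 cells 1 rose and 0 fell, and in vector cells 0 passed in limma, with 2 at an unadjusted p under 0.05. A count of 1 of 8 is near the 11.8% called among all genes. The riser was Arrb2, a beta-arrestin that binds the activated receptor, at 27.5 and 14.7 FPKM in EphrinB2 osteogenic libraries, against 8.45 and 5.92 FPKM in EphrinB2 complete libraries (difference 1.39, adjusted p = 0.0303). Its difference without both libraries that stood apart was a smaller 0.73. In vector cells Arrb2 measured 18.1 and 17.8 FPKM in osteogenic medium, against 8.31 and 9.05 FPKM in complete medium, a difference of 0.97 that did not pass (adjusted p = 0.119). The ligand genes Pth and Pthlh were under 1 FPKM in all libraries.

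Smpd3 (chromosome 8, 106252548 to 106337988) fell in osteogenic medium in EphrinB2 cells. It measured 1.04 and 2.05 FPKM in EphrinB2 osteogenic libraries, against 3.47 and 4.54 FPKM in EphrinB2 complete libraries. Levels in vector cells were 2.68 and 2.41 FPKM in osteogenic medium, against 3.06 and 2.74 FPKM in complete medium. The EphrinB2 groups were well apart and lay on both sides of the vector groups, which almost touched. The difference was -0.996 in EphrinB2 cells (SE 0.22, adjusted p = 0.0333) and -0.14 in vector cells (95% interval -0.66 to 0.39, adjusted p = 0.857). The mean in EphrinB2 cells was 2.59-fold lower in osteogenic medium. The interaction, which tests whether the medium effect differed between EphrinB2 and vector cells, was -0.86 in the limma model and did not pass (adjusted p = 0.746). With the length trend removed Smpd3 still fell in EphrinB2 cells, by 0.92 on the log2 scale (adjusted p = 0.018). Without both libraries that stood apart its difference was a smaller -0.55, from 1 library in each EphrinB2 group. The call was lost without EphrinB2 osteogenic replicate 1 (-0.71, adjusted p = 0.0668), without EphrinB2 complete replicate 2 (-0.84, adjusted p = 0.168) and with the EphrinB2 groups fitted alone (adjusted p = 0.203, 1.18% of all genes called). It was also lost when any 1 of the 4 vector libraries was left out, at the same -0.996 and adjusted p from 0.0785 to 0.0815. Averaged over both kinds of cell Smpd3 fell by 0.57 on the log2 scale, just past the threshold (adjusted p = 0.0461). That call was lost with a pseudocount of 0.1, without the filter, with median ratio scaling and with array weights (adjusted p from 0.0547 to 0.106), and without any 1 vector or EphrinB2 complete library (adjusted p from 0.0527 to 0.168). The average was a smaller -0.35 without both libraries that stood apart. Exons of Smpd3 overlap those of Prmt7 on the other strand, at 3.13 to 5.02 FPKM, and reads of both cannot be told apart without the strand setting.

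Ifitm5 (chromosome 7, 140948958 to 140950291) rose in osteogenic medium in EphrinB2 cells, on few reads. It measured 1.34 and 1.02 FPKM in EphrinB2 osteogenic libraries, against 0.338 and 0.0793 FPKM in EphrinB2 complete libraries. These are 21 and 15 estimated reads, against 5 and 1. Vector libraries showed 0.945 and 0.743 FPKM in osteogenic medium, against 0.418 and 0.421 FPKM in complete medium, or 14 and 11 reads, against 6 and 6. All 4 osteogenic libraries lay above all 4 complete libraries. The difference was 0.85 in EphrinB2 cells (SE 0.18, adjusted p = 0.0314) and 0.37 in vector cells (95% interval -0.065 to 0.82, adjusted p = 0.346). Exons of Gm45717, a gene on the same strand, overlap those of Ifitm5, and Gm45717 stood at 0 FPKM in all libraries. No source used here says how reads over shared exons were counted, so the Ifitm5 level may be understated. Ifitm5 entered the test only through the 2 EphrinB2 osteogenic libraries, where it is high, so a difference there was favoured by the filter. Its exons span 765 bases, the fewest among the members, and EphrinB2 osteogenic replicate 1 had raised values of short genes. With the length trend removed the EphrinB2 value was 0.51 and did not pass (adjusted p = 0.121), and without both libraries that stood apart it was 0.59 (adjusted p = 0.0795). The call was lost as well without EphrinB2 osteogenic replicate 1 (0.75, adjusted p = 0.0947), without EphrinB2 complete replicate 2 (0.70, adjusted p = 0.133) and without any 1 of the 4 vector libraries (0.85, adjusted p from 0.078 to 0.0798). Averaged over both kinds of cell the rise was 0.48 without both libraries that stood apart. With all libraries the average was 0.61 (adjusted p = 0.0193), and it passed with the length trend removed (0.47, adjusted p = 0.0472, where 26.4% of all genes were called). That average too was lost without any 1 vector library (adjusted p from 0.0676 to 0.0963).

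Cdh11 (chromosome 8, 102632095 to 102785642) fell in both kinds of cell. It measured 1.84 and 3.28 FPKM in EphrinB2 osteogenic libraries, against 25.5 and 23.6 FPKM in EphrinB2 complete libraries. In vector cells it measured 2.85 and 3.37 FPKM in osteogenic medium, against 21.6 and 21.3 FPKM in complete medium. The 4 osteogenic libraries were all far below the 4 complete libraries. Its mean was 9.61-fold lower in EphrinB2 cells and 6.89-fold lower in vector cells, and the log2(FPKM + 1) difference was -2.87 (95% interval -3.38 to -2.37, adjusted p = 0.000776) and -2.45 (95% interval -2.96 to -1.95, adjusted p = 0.00139). With every other processing setting tried, and with each library left out in turn, it passed in both kinds of cell, between -3.27 and -2.58 in EphrinB2 cells and between -2.75 and -2.36 in vector cells. Without both libraries that stood apart the EphrinB2 value was -2.63. N-cadherin (Cdh2), which fibroblasts also make, measured 21.7 and 29.5 FPKM in EphrinB2 osteogenic libraries, against 24.1 and 31.8 FPKM in EphrinB2 complete libraries, with overlap between the groups and a difference of -0.12 that did not pass (adjusted p = 0.698). In vector cells Cdh2 measured 32.1 and 28.8 FPKM in osteogenic medium, against 25.9 and 24.8 FPKM in complete medium, without overlap, and the difference of 0.25 did not pass (adjusted p = 0.647).

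**Figure D2:**
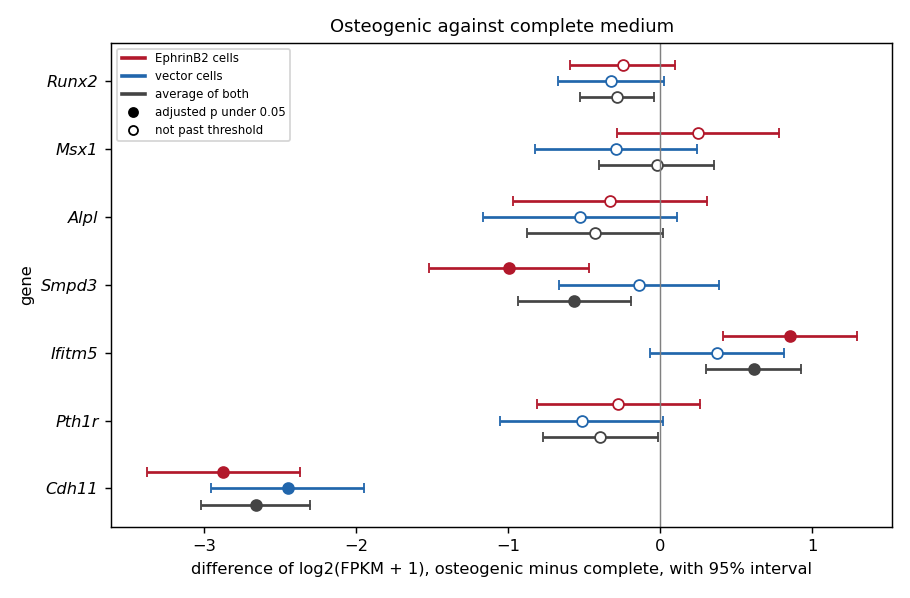
Difference of log2(FPKM + 1), osteogenic minus complete medium (horizontal axis), with its 95% interval for the 7 members tested, in EphrinB2 cells, in vector cells and averaged over both; filled points passed an adjusted p of 0.05. Only Cdh11 is filled in all 3 rows, at -2.87, -2.45 and -2.66, and Smpd3 and Ifitm5 are filled in EphrinB2 cells and in the average.

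Counted over the members tested for the medium, 3 of 7 passed in EphrinB2 cells, 1 rise and 2 falls, beside 11.8% of all genes tested. In vector cells 1 of 7 passed, a fall, beside 7.52% of all genes tested. Averaged over both kinds of cell, 3 of 7 passed beside 19.8%. With both libraries that stood apart left out 6 of 7 passed in that average, where 48.2% of all genes did, so that count is to be read against a high background. The median difference over the 7 members was -0.28 in EphrinB2 cells and -0.32 in vector cells, beside 0.027 and -0.019 over all genes tested. The 7 passed a filter on low values and are not all members.

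The other genes of the mineralised matrix gave the surroundings of these changes. Of 16 listed, 10 were under 1 FPKM in all libraries, among them the osteocalcin genes Bglap, Bglap2 and Bglap3, bone sialoprotein Ibsp, the mineralisation phosphatase Phospho1 and the osteocyte genes Dmp1, Sost and Phex. Of the 6 tested, 1 rose and 4 fell in EphrinB2 cells, and 1 rose and 4 fell in vector cells, beside 11.8% and 7.52% of all genes tested. Omd, a small proteoglycan of bone matrix, rose to 10.3 and 9.98 FPKM in EphrinB2 osteogenic libraries, against 1.84 and 2.43 FPKM in EphrinB2 complete libraries, and to 8.45 and 8.98 FPKM in vector osteogenic libraries, against 2.02 and 1.91 FPKM in vector complete libraries. Col1a1, the main collagen chain of bone and of fibroblast matrix alike, fell to 281 and 407 FPKM in EphrinB2 osteogenic libraries, against 1422 and 2087 FPKM in EphrinB2 complete libraries, and to 433 and 426 FPKM in vector osteogenic libraries, against 1456 and 1422 FPKM in vector complete libraries. Its partner chain Col1a2 fell by 1.37 on the log2 scale in EphrinB2 cells (adjusted p = 0.00577) and by 1.05 in vector cells (adjusted p = 0.0181). The collagenase Mmp13 fell as well (-0.71, adjusted p = 0.0326, and -0.99, adjusted p = 0.0129), but entered the test only through the vector complete libraries. Sparc was the other fall, to 1009 and 899 FPKM in EphrinB2 osteogenic libraries, against 3059 and 1625 FPKM in EphrinB2 complete libraries. Spp1 did not pass but was higher in osteogenic medium in both kinds of cell. It measured 426 and 165 FPKM in EphrinB2 osteogenic libraries, against 96.0 and 86.4 FPKM in EphrinB2 complete libraries. Vector cells gave 244 and 272 FPKM, against 165 and 138 FPKM. In EphrinB2 cells the Spp1 difference was 1.53 (adjusted p = 0.0609 in limma). Averaged over both kinds of cell, 2 of the 6 rose, Omd and Spp1, and 4 fell, beside 19.8% of all genes tested. Without both libraries that stood apart, the EphrinB2 differences of Omd, Col1a1, Col1a2 and Mmp13 were 1.95, -1.80, -1.17 and -0.79. Those of Sparc and Spp1 were -1.765 and 0.78. The median of the list was -0.97 in EphrinB2 cells and -1.02 in vector cells.

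Relatives of the members by family were listed as well. Of 24 listed, 12 were under 1 FPKM in all libraries, among them Runx3 and Dlx1, Dlx2, Dlx3, Dlx4 and Dlx6. In EphrinB2 cells 1 of the 12 tested rose and 2 fell, and in vector cells 1 fell. These are 3 of 12 beside 11.8% of all genes tested, and 1 of 12 beside 7.52%, which is near the share over all genes. The riser was Smpd2, another neutral sphingomyelinase, with a mean of 8.31 ± 2.91 FPKM in EphrinB2 osteogenic libraries and 3.58 ± 0.114 FPKM in EphrinB2 complete libraries (SD, n = 2 each; difference 0.99, adjusted p = 0.0331). Runx1, the RUNX factor of blood cell formation, fell in EphrinB2 cells (-0.91, adjusted p = 0.0499) and stood at -0.63 in vector cells (adjusted p = 0.19). Cdh5, the cadherin of endothelial cells, fell in both, by 1.21 on the log2 scale in EphrinB2 cells (adjusted p = 0.0226) and by 1.13 in vector cells (adjusted p = 0.0362), but it passed the filter only through the complete libraries, where it is high. Tek, another endothelial gene, went the other way: it averaged 9.25 ± 2.46 FPKM in EphrinB2 osteogenic libraries and 6.16 ± 0.694 FPKM in EphrinB2 complete libraries (SD, n = 2 each; difference 0.50, adjusted p = 0.137), and its difference in vector cells was 0.80 (adjusted p = 0.0554). Averaged over both kinds of cell Tek rose (0.65, adjusted p = 0.0177). In that average Tek was the 1 rise among the 3 endothelial markers tested, and Cdh5 and Pecam1 were the 2 falls, beside 19.8% of all genes. Pecam1 too passed the filter only through complete libraries. Of the 7 endothelial markers listed, 4 were under 1 FPKM in all libraries. With both libraries that stood apart left out, the EphrinB2 values of Smpd2 and Runx1 were a smaller 0.64 and -0.44 and that of Cdh5 was -1.51.

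In the BMP pathway, which acts upstream of Runx2, Dlx5 and the Msx factors, the calls were falls, and the share called was not far from that over all genes in EphrinB2 cells. Of 17 genes tested among 21 listed, 0 rose and 3 fell in EphrinB2 cells, and 0 rose and 4 fell in vector cells. This sets 3 of 17 beside 11.8% of all genes tested, and 4 of 17 beside 7.52%. The ligand Bmp4 measured 34.7 and 33.3 FPKM in EphrinB2 osteogenic libraries, against 67.4 and 65.8 FPKM in EphrinB2 complete libraries, and 24.3 and 27.4 FPKM in vector osteogenic libraries, against 65.4 and 58.3 FPKM in vector complete libraries. The secreted BMP antagonist Nog fell too, by 1.01 on the log2 scale in EphrinB2 cells (adjusted p = 0.0205) and by 0.99 in vector cells (adjusted p = 0.0266), at levels of at most 1.41 FPKM. It passed the filter only through complete libraries, where it is high. The receptor Acvr1 fell in EphrinB2 cells (-0.71, adjusted p = 0.0492), and the inhibitory Smads Smad6 (-0.96, adjusted p = 0.0205) and Smad7 (-0.96, adjusted p = 0.0338) fell in vector cells. When both libraries that stood apart were left out, the EphrinB2 values of Bmp4, Nog and Acvr1 were -0.997, -1.18 and -0.51. The BMP target Id1 measured 123 and 57.9 FPKM in EphrinB2 osteogenic libraries, against 72.9 and 27.5 FPKM in EphrinB2 complete libraries, and 49.8 and 53.8 FPKM in vector osteogenic libraries, against 59.3 and 57.3 FPKM in vector complete libraries. In EphrinB2 cells its groups overlapped, and the differences of Id1, Id2 and Id3 were 0.90, 0.86 and 1.07 and did not pass (adjusted p = 0.257, 0.143 and 0.193). They rest on the libraries that stood apart: without both, Id1 was -0.33, Id2 was 0.11 and Id3 -0.13. The summed level of the 21 genes was 1020 and 680.2 FPKM in EphrinB2 osteogenic libraries, against 814.5 and 577.8 FPKM in EphrinB2 complete libraries. In vector cells it was 593.8 and 622.2 FPKM in osteogenic medium, against 762.6 and 749.8 FPKM in complete medium. Id3 alone gave 583 and 273 FPKM of the EphrinB2 osteogenic sums, and 300 and 119 FPKM of the EphrinB2 complete sums. The sums therefore do not describe the list as a whole.

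**Figure D3:**
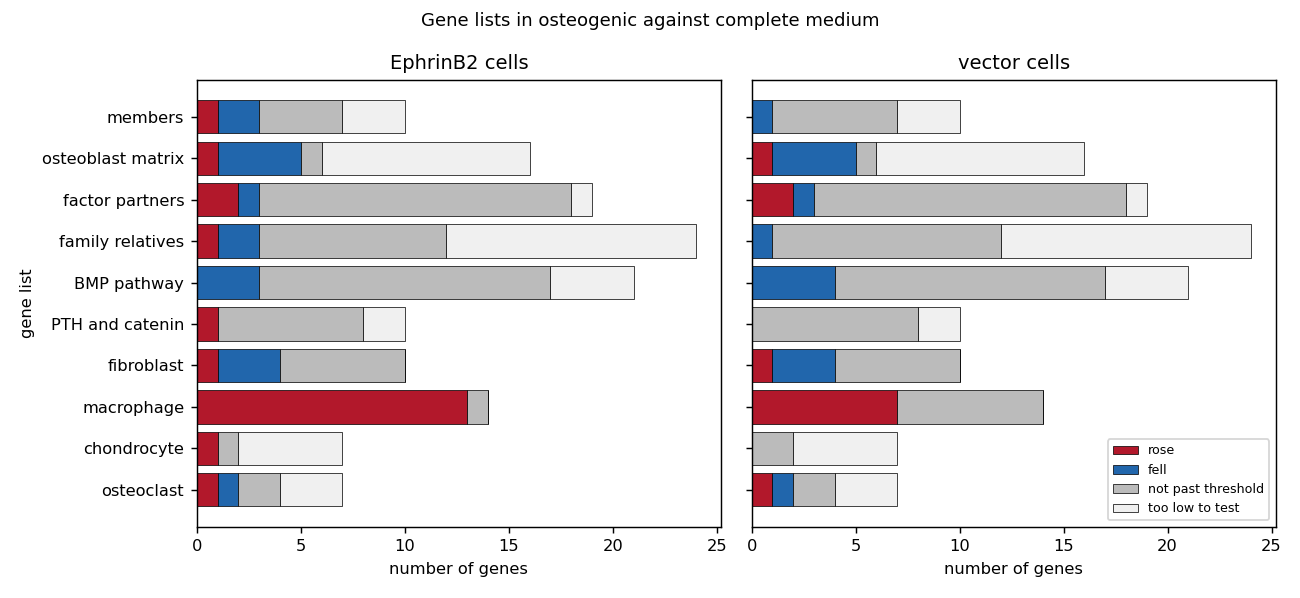
Number of genes (horizontal axis) in each list that rose, fell, did not pass the test or were too low to test in osteogenic against complete medium, in EphrinB2 cells (left) and vector cells (right). The matrix list shows 4 falls and 1 rise in both panels, the BMP pathway list falls only, and the macrophage list 13 rises in EphrinB2 cells and 7 in vector cells.

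Markers of other cells moved with the medium. Macrophage markers summed to 8358 and 4147 FPKM in EphrinB2 osteogenic libraries, against 1797 and 866.7 FPKM in EphrinB2 complete libraries, and to 4666 and 4891 FPKM in vector osteogenic libraries, against 2138 and 1877 FPKM in vector complete libraries. Lyz2 alone gave 6061 and 2978 FPKM of the EphrinB2 osteogenic sums, and 1328 and 551 FPKM of the EphrinB2 complete sums. In vector cells Lyz2 gave 3359 and 3478 FPKM of the osteogenic sums, and 1593 and 1392 FPKM of the complete sums. The macrophage sums therefore follow mostly this gene and do not describe the list as a whole. Of the 14 macrophage markers listed, none was at 0 in any library. In EphrinB2 cells 13 rose, beside 11.8% of all genes tested, in vector cells 7 rose, beside 7.52%, and 0 fell. The marker that did not pass in EphrinB2 cells was Ptprc (0.19, adjusted p = 0.35). Cd163 was at 0.266 and 0.311 FPKM in EphrinB2 complete and 0.283 and 0.236 FPKM in vector complete libraries. It passed the filter only through osteogenic libraries. Without both libraries that stood apart the EphrinB2 difference of Lyz2 was 1.165, against 2.31 with all libraries. That of Cd163 was 3.77, against 3.43. The 10 fibroblast markers summed to 3245 and 2961 FPKM in EphrinB2 osteogenic libraries, against 5311 and 6190 FPKM in EphrinB2 complete libraries. In vector cells they summed to 2823 and 2886 FPKM in osteogenic medium, against 5190 and 5006 FPKM in complete medium. The list had 3 falls and 1 rise in each kind of cell, beside 11.8% and 7.52% of all genes tested. The falls were the collagens Col3a1, Col1a1 and Col1a2. The rise was Dcn, at 801 and 663 FPKM in EphrinB2 osteogenic libraries, against 222 and 118 FPKM in EphrinB2 complete libraries. Without both libraries that stood apart the EphrinB2 differences were -1.73 for Col3a1 and 1.58 for Dcn, against -1.89 and 2.16 with all libraries. The 6 others did not pass, so the lower sums do not describe the list as a whole. Of the markers of osteoclasts, which share a lineage with macrophages, Acp5 rose and Atp6v0d2 fell in both kinds of cell. Acp5 passed the filter only through osteogenic libraries, and Atp6v0d2 mainly through the complete ones. The Acp5 difference in EphrinB2 cells was 1.77, and a smaller 1.28 without both libraries that stood apart. Without both libraries that stood apart Atp6v0d2 no longer passed in EphrinB2 cells (-0.74). Ctsk, the osteoclast marker with the highest level, did not pass in EphrinB2 cells (0.13, adjusted p = 0.85) and was -0.92 there without both libraries. In vector cells Ctsk measured 42.4 and 37.4 FPKM in osteogenic medium, against 54.8 and 56.9 FPKM in complete medium, and did not pass. The part of these shifts in the falls of Cdh11 and Smpd3 and in the rise of Ifitm5 was not tested. In bulk RNA, fewer cells of a type and less RNA per cell cannot be told apart. Of 7 chondrocyte markers 5, Col2a1 and Acan among them, were under 1 FPKM in all libraries. Comp rose in EphrinB2 cells (1.40, adjusted p = 0.0223), and its difference was a smaller 0.86 without both libraries. Of 7 cardiomyocyte markers 6 were under 1 FPKM in all libraries, and the other, Tnnt2, rose by 2.80 in EphrinB2 cells (adjusted p = 0.00163) and by 2.12 in vector cells (adjusted p = 0.00525). Tnnt2 was under 1 FPKM in all complete libraries and passed the filter only through the osteogenic ones, where it is high, and it also rose in EphrinB2 cells without both libraries (adjusted p = 0.00279).

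EphrinB2 against vector gave no call among the members. In osteogenic medium 0 of 7 passed in limma, with 0 at an unadjusted p under 0.05, beside 0% of all genes tested. In complete medium 0 of 7 passed, with 0 at an unadjusted p under 0.05, beside 0.0077% of all genes, which is 1 gene and no member. The interaction of EphrinB2 and medium gave 0 of 7 beside 0%, with 1 member, Smpd3, at an unadjusted p under 0.05, and EphrinB2 averaged over both media gave 0 of 7 beside 0%, with 0 at an unadjusted p under 0.05. In osteogenic medium the differences, EphrinB2 minus vector, were -0.50 for Smpd3 (95% interval -1.03 to 0.021), 0.42 for Pth1r (-0.11 to 0.96), 0.32 for Msx1 (-0.21 to 0.85) and 0.24 for Ifitm5 (-0.20 to 0.68). Those of Cdh11, Alpl and Runx2 were -0.24 (-0.74 to 0.27), 0.079 (-0.56 to 0.72) and -0.066 (-0.41 to 0.28). Values that miss the threshold with intervals this wide do not show that EphrinB2 left the genes unchanged. Without EphrinB2 osteogenic replicate 2, Pth1r (0.75, adjusted p = 0.0276) was higher and Smpd3 (-0.79, adjusted p = 0.038) and Cdh11 (-0.53, adjusted p = 0.0477) were lower in EphrinB2 cells, in a fit that rests on replicate 1 alone and calls 21.1% of all genes.

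In complete medium the largest difference among the members was again in Smpd3, at 0.35 (95% interval -0.17 to 0.88), the other way from osteogenic medium. Cdh11 stood at 0.19 (-0.32 to 0.69) and Pth1r at 0.18 (-0.36 to 0.72). Runx2 was at -0.14 (-0.49 to 0.21), Alpl at -0.12 (-0.76 to 0.52), Msx1 at -0.22 (-0.75 to 0.31) and Ifitm5 at -0.24 (-0.68 to 0.20). Every adjusted p was 1. The comparisons of EphrinB2 and of medium share libraries and are not independent of each other.

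**Figure D4:**
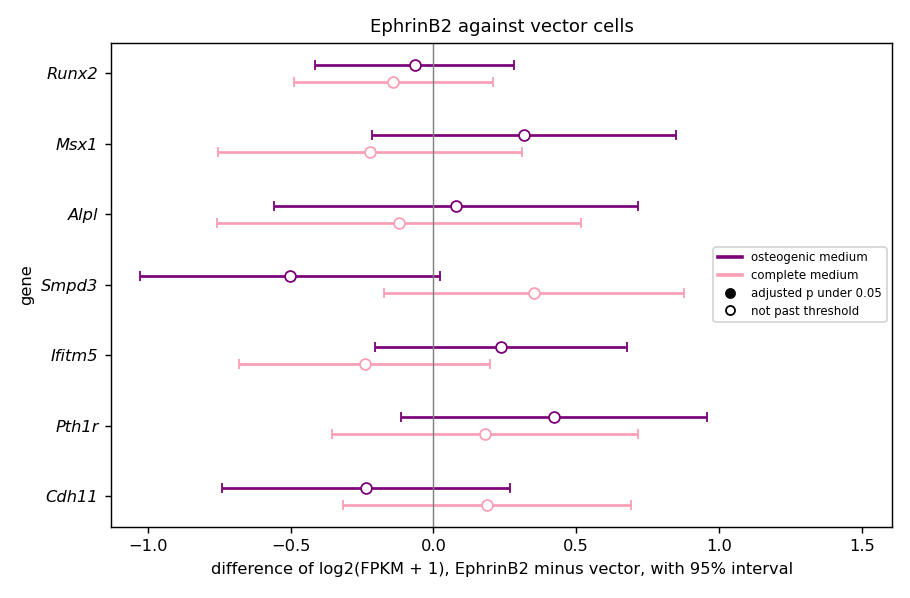
Difference of log2(FPKM + 1), EphrinB2 minus vector cells (horizontal axis), with its 95% interval for the 7 members tested, in osteogenic and in complete medium. No point is filled, that is, none passed an adjusted p of 0.05, and all 14 intervals include 0.

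For the 3 members that passed a test, the genes most like them were sought among 9272 or 9273 named protein genes with a mean of at least 2 FPKM, by the root mean square difference of the centred log2 values over the 8 libraries. Cdh11 was closest to Bhlhe40 (0.179), a helix-loop-helix factor, and Tnfrsf11b (0.203), the osteoclast inhibitor osteoprotegerin. Smpd3 was closest to Zfp266 (0.0902) and Dsel (0.0934), and Ifitm5 to Rnf220 (0.0457) and Zfp105 (0.0724). These are descriptions over 8 libraries that share the same 4 groups.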

How the data were processed

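Libraries were made from total RNA isolated with Trizol, per the labels. The authors deposited 1 FPKM value per Ensembl gene and library. The submitters' processing notes name CASAVA, HISAT2 2.0.5, featureCounts 1.5.0-p3, DESeq2 1.16.1 and mm10, without their roles; no source used here gives the annotation release, strand setting or filters. GENCODE M21 (GRCm38, the assembly of mm10) supplied symbols, coordinates and exon lengths for 54495 of 54532 identifiers. Reads were estimated from FPKM, exon length and the step between low values; 98.14% to 98.34% of values under 50 reads came out whole within 0.02 reads. No column belonged to other samples.

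Genes with at least 1 FPKM in at least 2 libraries (12994) were fitted on log2(FPKM + 1), which understates changes of low genes, in limma 3.58.1 (R 4.3.3). The 4 group means shared 1 trended variance (4 residual and 2.72 prior degrees of freedom), the tests were two-sided and p-values were Benjamini-Hochberg adjusted over all genes with a threshold of 0.05. The steps were tested on simulated data. Members and lists were chosen with earlier results of these data known. All members, Efnb2 and the 2 genes most like each called member are named. From the lists, up to 4 called genes per comparison (smallest p first) were picked. Not all of these are printed: most of the macrophage markers and some genes called only in the average are left out. Cdh2, Cbfb and Pth and other genes without a call were added after their values were seen. Spp1, Sparc, Lyz2 and Ptprc were also added after their values were seen. Replicates were numbered in listed order and not paired.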

Additional observations from a re-analysis of the deposited data

Results flagged for a closer look

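For 3 members both libraries of a group moved one way and both libraries of the other group the opposite way, each set against the mean of its comparison group. The difference itself passed the test in none of them. The medium effect on Msx1 was higher in EphrinB2 than in vector cells by 0.54 on the log2(FPKM + 1) scale (adjusted p = 0.746), and by 0.12 without both libraries that stood apart. The EphrinB2 effect on Ifitm5 was higher in osteogenic than in complete medium by 0.48 (adjusted p = 0.746), with 21 and 15 estimated reads in EphrinB2 osteogenic libraries and 14 and 11 in vector osteogenic libraries, and 5 and 1 in EphrinB2 complete libraries and 6 and 6 in vector complete libraries. It was 0.22 without both libraries that stood apart and 0.082 with the length trend removed. The EphrinB2 effect on Smpd3 was lower in osteogenic than in complete medium, with a difference of -0.86 (adjusted p = 0.746), and -0.41 without both libraries that stood apart. None of these values passed (adjusted p from 0.619 to 0.928).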

How the results depend on the processing

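The fall of Cdh11 in osteogenic medium passed under every alternative run, in both kinds of cell. Other member calls moved with the spread that the fit assumes. For the medium in vector cells, 1 member passed; 5 did with array weights and 4 each with the 2 groups fitted alone or both libraries that stood apart left out (977 genes of all tested, against 5521, 5273 and 5274), and 1 to 3 with a library left out. In EphrinB2 cells 3 passed; 1 did without the filter, with array weights or with the 2 groups alone (1533 genes, against 1052, 335 and 153), 4 did without both libraries apart, which called 3858 genes and gained Alpl and Pth1r but not Ifitm5, and 1 to 3 with a library left out, losing Smpd3 and Ifitm5 also without any single vector library. In the average 3 passed; 1 did with array weights and 6 without both libraries apart (2568 genes, against 2155 and 6265), and 1 to 5 with a library left out. For EphrinB2 in osteogenic medium the count was 0 to 3 with a library left out. Of 568 values of single members 486 kept direction and call, 28 gained the call, 35 lost it and 19 changed sign.

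The sign changes all concern values that did not pass. For the medium in EphrinB2 cells, Runx2 was 0.030 with the length trend removed and Msx1 -0.18 without both libraries apart. For EphrinB2 in complete medium Msx1 was 0.024 without both. For EphrinB2 in osteogenic medium Runx2 was 0.0017 after quantile normalisation, 0.15 with the length trend removed and 0.030 without both; Ifitm5 was -0.11 with the length trend removed; Alpl was -0.34 and Cdh11 0.061 without both. With a library left out, the medium value in EphrinB2 cells ran from -0.0012 to 0.49 for Msx1, -0.75 to 0.092 for Alpl and -0.60 to 0.052 for Pth1r, and the average for Msx1 from -0.15 to 0.098. EphrinB2 in complete medium ran from -0.47 to 0.024 for Msx1, and in osteogenic medium from -0.16 to 0.030 for Runx2, -0.34 to 0.50 for Alpl and -0.53 to 0.061 for Cdh11. The cause of these changes was not tested. Where a left-out library leaves a group with 1, the fit assumes that it varies like the others. No paired analysis was possible because the labels share no replicate numbers between groups. At these depths, levels below about 0.05 FPKM in a gene the length of Sp7 are within the limit that 0 reads allow.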
